A study of Mus musculus with 4 samples.

Results

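Mammalian cells write, copy and erase 5-methylcytosine with a small set of enzymes, and 8 mouse genes of this system were examined here for binding of RAD21, out of 21418 protein-coding genes on the autosomes. They are the writers Dnmt3a and Dnmt3b with their cofactor Dnmt3l, the maintenance pair Dnmt1 and Uhrf1, and the oxidases Tet1, Tet2 and Tet3. The genes were chosen by name, and a RAD21 site was counted with a gene when it lay within 100 kb of the gene body in the GENCODE annotation of the mouse genome build mm9. The list of embryonic stem cells (ESCs) gave 20 such sites of 15311, and the list of embryoid bodies (EBs) gave 9 of 11022. Merged by overlap of at least 1 bp, these are 22 sites, of which 7 are shared, 13 are ESC-only and 2 are EB-only. Each site is named by its gene and numbered along the chromosome, as in Dnmt3b site 2.

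RAD21 was mapped by chromatin immunoprecipitation and sequencing (ChIP-seq) in the mouse ESC line R1/E, kept without feeder cells on gelatin with LIF (day 0), and in EBs, the aggregates these cells form in hanging drops over 12 days of differentiation. All 4 libraries came from cells that carry a RAD21-LAP transgene, a GFP-containing tag on Rad21 within a bacterial artificial chromosome, in resistant clones sorted for GFP, so that the antibody was directed at the tagged protein alone. Each cell type gave 1 library with a goat antibody against eGFP and 1 with goat IgG as an isotype control, which the control descriptions also call input DNA and which is named IgG here. With 1 library per group, differences below are those of individual libraries and the conditions could not be tested against each other, and all intervals are exact 95% intervals for counting error only. ChIP reads do not measure RNA, so neither the cell identity of the EBs nor the expression of these genes could be checked.

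As background, DNMT3A and DNMT3B place new methyl groups on cytosine, mainly in CpG dinucleotides, and DNMT3L stimulates them although it has no catalytic activity of its own. UHRF1 recognizes hemimethylated DNA behind the replication fork and brings in DNMT1, which copies the mark to the new strand. TET proteins oxidize 5-methylcytosine to 5-hydroxymethylcytosine and beyond, which leads to its removal. RAD21 is the kleisin subunit that closes the cohesin ring, and much of cohesin in mammalian genomes sits where the insulator protein CTCF is bound.

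The RAD21 libraries held 13714772 (ESC) and 7740389 (EB) reads on the autosomes, and the IgG libraries 12602155 and 6929293. Each read was placed at the centre of its fragment, and values are given as counts and as RPM, reads per 1000000 autosomal reads of the library. In random windows the log2 EB to ESC ratio of RAD21 RPM, with 1 read added to each count, was lower in GC-rich windows. Its median was 0.83 in the lowest of 5 classes of GC content and -0.17 in the highest. Equal counts in both libraries, also where both are empty, give 0.83 by this measure. The medians thus move in steps set by low counts, and their size does not measure an excess of reads. The regions around all 8 genes (gene body and 100 kb on each side) were also counted without the reads inside listed sites. There the EB to ESC ratio of IgG reads was under 1, from 0.590 around Uhrf1 to 0.917 around Tet2. That of RAD21 reads was from 0.652 around Dnmt1 to 0.846 around Tet2.

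The sequences under the sites were read first, because cohesin is best known from CTCF sites. A 20-base weight matrix for CTCF was learned from the ESC sites of the other chromosome set, and a match within 150 bp of the summit was called a motif. A motif was found at 13 of the 20 ESC sites (65.0%) and at 9 of the 9 EB sites. Among all autosomal sites the share was 60.3% in ESCs and 56.7% in EBs, and in random windows it was 0.590%. All 7 shared sites held a motif, as did both EB-only sites and 6 of the 13 ESC-only sites. Over all autosomal sites these shares were 65.0%, 39.7% and 55.9%. The 7 sites without a motif were thus all ESC-only sites, and 2 of them, Dnmt3b site 3 and Dnmt3l site 1, held a match at the laxer rate of 1e-04.

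The motif matches of the sites that carry the main results are printed below with 10 bases on each side, on the strand of the motif. Capitals mark the 20 bases matched by the matrix, and positions are mm9. The first is the site of highest score and the next 2 are the EB-only sites, all near Dnmt3b. They are followed by the site upstream of Tet2, which was listed in ESCs only, and by 3 neighbouring sites near Tet3, of which the middle was shared. The last is the shared site near Uhrf1.
Dnmt3b site 2 (chr2:153412447-153412486, minus strand): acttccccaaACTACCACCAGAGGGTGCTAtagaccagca
Dnmt3b site 4 (chr2:153494633-153494672, plus strand): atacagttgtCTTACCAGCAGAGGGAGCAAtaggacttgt
Dnmt3b site 5 (chr2:153536595-153536634, plus strand): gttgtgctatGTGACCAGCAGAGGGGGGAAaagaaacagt
Tet2 site 1 (chr3:133215126-133215165, minus strand): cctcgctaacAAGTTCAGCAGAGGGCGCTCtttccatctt
Tet3 site 1 (chr6:83215433-83215472, minus strand): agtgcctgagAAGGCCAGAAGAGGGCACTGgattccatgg
Tet3 site 2 (chr6:83229100-83229139, minus strand): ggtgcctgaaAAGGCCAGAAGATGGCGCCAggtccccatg
Tet3 site 3 (chr6:83230717-83230756, minus strand): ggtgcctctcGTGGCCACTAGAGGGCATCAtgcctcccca
Uhrf1 site 2 (chr17:56497146-56497185, plus strand): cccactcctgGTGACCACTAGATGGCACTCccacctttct

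The EB-only matches at Dnmt3b scored 10.4 and 11.6 bits on the matrix, and the match at the strongest site, Dnmt3b site 2, scored 11.8 bits. The score of the match did not separate shared from ESC-only sites near Tet3. Site 3, which was listed in ESCs only, had 23.7 bits, and site 2, which was shared and lies 1615 bp away, had 12.4 bits. Away from Tet3, shared sites had 25.7 and 21.4 bits at Dnmt3l sites 2 and 3 and 24.3 at Uhrf1 site 2. Dnmt3a site 3 and Dnmt3b site 2, also shared, had 23.0 and 11.8. The ESC-only motif sites there had 11.5 bits at Dnmt1 site 1 and 24.2 at Dnmt3a site 1. Tet2 site 1 and Uhrf1 site 1, also ESC-only, had 9.73 and 13.8. A difference by class was not tested. The windows of Tet3 sites 1 and 2 were the most alike of the 105 pairs of motif windows, with 29 of 40 bases equal, 13 of them among the 20 flanking bases, where the median pair had 7. Repeat annotation was not used here. On the strand printed, the summit lay on the 3′ side of the motif at 13 of the 15 sites with a motif. The signed distance from the motif centre, positive on that side, had a median of 59.5 bp, against 46.5 bp over all autosomal ESC sites with a motif. The 3′ end of the motif pointed toward the gene at 6 sites and away from it at 8, and 1 site was inside the gene. No share over all autosomal sites is given here for the side or for the pointing, so these counts have no background.

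Tet1 site 1, the only site inside a TET gene, had no CTCF match at either rate. It was the sole site of the 22 with the letters TCAAGGTCA, a consensus of the pluripotency factor ESRRB, within 150 bp of the summit on either strand. These letters were present at 0.743% of all autosomal ESC sites and in 0.620% of random windows. The match is shown with 15 bases on each side and the letters in capitals, followed by the 151 bases centred on the summit, which lies 93 bp away.
Tet1 site 1, ESRRB letters (chr10:62359788-62359826, plus strand): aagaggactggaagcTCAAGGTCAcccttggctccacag
Tet1 site 1, summit (chr10:62359639-62359789, plus strand): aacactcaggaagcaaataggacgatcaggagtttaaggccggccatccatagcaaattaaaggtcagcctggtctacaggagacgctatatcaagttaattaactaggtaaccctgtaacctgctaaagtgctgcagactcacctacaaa
The Oct octamer ATGCAAAT occurred at Dnmt3a site 3, the Sox letters CATTGTT at Tet3 site 2 and the Klf letters GGGTGTGG at Tet2 site 1, each at 1 of the 22 sites on either strand. The shares over all autosomal ESC sites were 1.80%, 4.61% and 2.12%, and in random windows 2.55%, 6.11% and 1.88%.

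No ESC site lay within 1 kb of the main start of any of the 8 genes, and no EB site did. The main start of a gene is the start with the most protein-coding transcripts. This absence is common, since 2.29% of all protein-coding autosomal genes had an ESC site and 2.19% an EB site there. Within 100 kb, all 8 genes had at least 1 ESC site, against 82.3% of all genes. For EB sites 5 of the 8 genes had one, against 73.6%. Dnmt1, Tet1 and Tet2 were the 3 genes with none. Tet3 had the most ESC sites, 5, a number exceeded by 6.69% of all genes, and Dnmt3b had the most EB sites, 3, exceeded by 9.18%. Of the 22 summits 10 were intergenic and 10 were in introns, 9 of them of a neighbouring gene. Of the others, Dnmt3l site 1 was in an exon of 1810043G02Rik and Dnmt3b site 4 near a start. The shares of these places over all autosomal sites are not given here. The genes with introns that held sites included Slc4a5 and Bola3 near Tet3, Kdm4b near Uhrf1 and Pomc and Efr3b near Dnmt3a, so a site is near a gene by distance only and its contact with that gene's start was not measured.

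**Figure D1:**
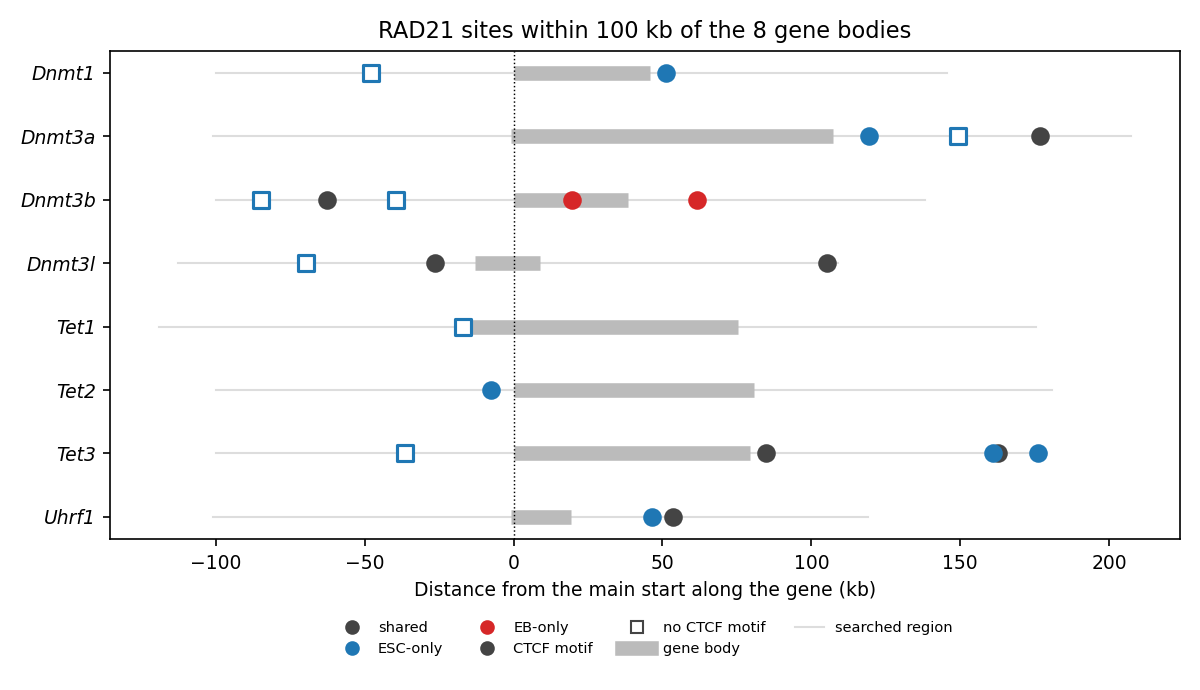
RAD21 sites around the 8 genes, by distance from the main start along the direction of the gene (kb). Grey bars are gene bodies and thin lines the region searched. Circles are sites with a CTCF motif and open squares sites without, coloured as shared, ESC-only or EB-only. No site falls on a main start, Dnmt3b alone has EB-only sites (2), and the 7 open squares are all ESC-only.

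The distance between the nearest sites on either side of the main start gave the span without a listed site at each gene. Between ESC and EB lists this site-free span went from 99.2 to 573 kb at Dnmt1, from 217 to 838 kb at Tet1 and from 215 to 761 kb at Tet2. It was the other way at Dnmt3b, where 320 kb without a site in ESCs became 82.2 kb in EBs. The median over all genes was 179 kb in ESCs and 269 kb in EBs. The EB span of Dnmt3b was longer than that of only 11.6% of genes, and those of Tet1 and Tet2 were longer than 85.1% and 83.5%. The spans of Dnmt3a, Dnmt3l, Tet3 and Uhrf1 were 121 to 230 kb in ESCs and 132 to 288 kb in EBs. The EB library was also the shallower one, and the part of depth in the listing was not tested.

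Of the 20 ESC sites, 7 (35.0%, interval 15.4 to 59.2) were also listed in EBs, against 48.6% of all autosomal ESC sites. Of the 9 EB sites, 7 (77.8%, 40.0 to 97.2) were also listed in ESCs, against 68.3%. Both background shares lie inside the intervals. Intervals of shares, here and below, treat the sites as independent, although several lie near the same gene. The lists fix the direction of the reads in part, since a site listed in ESCs only was chosen for its ESC reads. At the 7 shared sites the log2 EB to ESC ratio of RAD21 RPM, with 1 read added to each count, had a median of -0.22 (range -0.72 to 0.49), where all shared sites had a median of 0.38. The reads of the regions outside the listed sites were also lower in EBs, as given above, and their bearing on the sites was not tested. Under the alternatives the median of the 7 shared sites ran from -0.60, scaled to all shared sites, to -0.04. The latter had the median of random windows of the same GC class taken off, and no such value is given here for all shared sites. At the 13 ESC-only sites the log2 ratio before any such change was -1.38 (-2.76 to -0.11), against -1.11 for all ESC-only sites. At the 2 EB-only sites it was 1.51, against 1.49. Random windows had a median of 0.24, a value shaped by the added read at such low counts.

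At least 2-fold fewer EB than ESC reads were counted at 8 of the 20 ESC sites, against 28.7% of all autosomal ESC sites. For 7 of them the interval also excluded 1, against 22.0%. At least 2-fold more EB reads were counted at 2 of the 9 EB sites, against 34.1% of all autosomal EB sites. How far EB reads at ESC-only sites were from background was read from random windows, of which 95% held at most 5 EB RAD21 reads. Of the 13 ESC-only sites 3 were above that level in EBs (23.1%, interval 5.04 to 53.8), against 44.5% of all ESC-only sites, a share inside the interval.

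**Figure D2:**
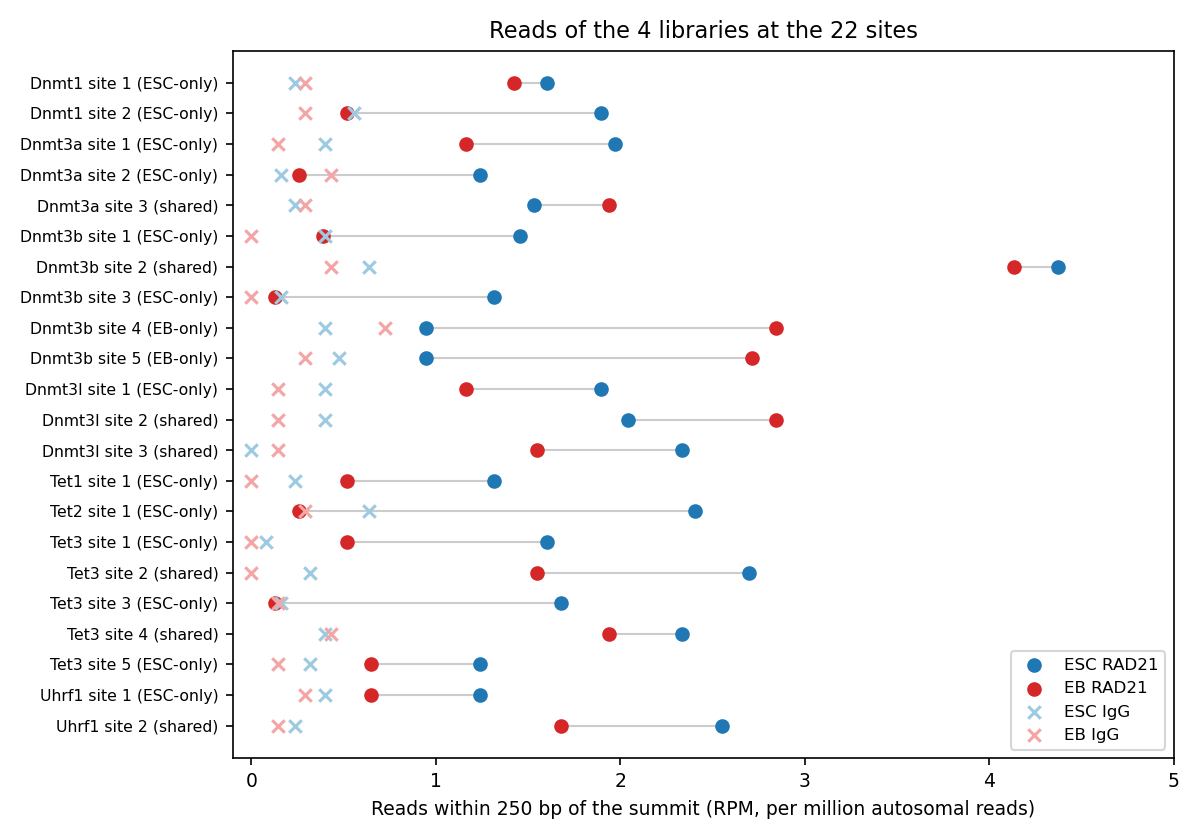
Reads within 250 bp of the summit of each of the 22 sites in RPM (x axis), with filled circles for the RAD21 libraries and crosses for the IgG libraries. A grey line joins the ESC and EB RAD21 values of a site. Dnmt3b site 2 lies farthest right, at 4.37 RPM in ESCs and 4.13 in EBs, and the EB RAD21 value falls among the IgG values at sites such as Tet2 site 1 and Tet3 site 3.

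Dnmt3b, the methyltransferase of the early embryo and the one required at pericentromeric repeats, held the largest set of changes, with sites of all 3 classes. Its site 2 (chr2:153411894-153412992), 62754 bp upstream of the main start, had the highest deposited score near any of the genes, 317 in ESCs and 196 in EBs. It held 60 ESC and 32 EB RAD21 reads against 8 ESC and 3 EB IgG reads. Scaled by depth the RAD21 values were nearly level, with an EB to ESC ratio of 0.945 (0.595 to 1.47), and the EB summit was 2 bp from the ESC summit.

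The ESC-only sites on either side of it were weaker and had few EB reads. Dnmt3b site 1 (chr2:153389976-153390894) had 20 ESC and 3 EB RAD21 reads against 5 and 0 IgG reads. Its ratio was 0.266 (0.0506 to 0.896). Dnmt3b site 3 (chr2:153435203-153435985) had 18 ESC and 1 EB RAD21 reads against 2 and 0 IgG reads, a ratio of 0.0984 (0.0024 to 0.623). Neither held a CTCF motif at the main rate.

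Both EB-only sites of the whole set belonged to Dnmt3b and lay at and beyond the gene. Site 4 (chr2:153494233-153494887) is inside the gene, 19456 bp past the main start and 464 bp from the start of the transcript Dnmt3b-011, which is not annotated as protein-coding. It held 13 ESC and 22 EB RAD21 reads against 5 reads in each IgG library. The EB to ESC ratio was 3.00 (1.45 to 6.48). The IgG reads stood for 0.397 RPM in ESCs and 0.722 RPM in EBs, so the EB excess over IgG was 3.43-fold, the lowest of the 9 EB sites. Site 5 (chr2:153536174-153537044), 23286 bp past the gene end in an intron of Gm14490, held 13 ESC and 21 EB RAD21 reads against 6 and 2 IgG reads. Its ratio was 2.86 (1.37 to 6.22). ESC reads at both sites were above the 7 reads that 95% of random windows did not exceed in ESCs, so the ESC library was not empty there.

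Dnmt3a, the de novo enzyme of germ cells and later embryos, had its 3 sites past its 3′ end. The one of highest score, site 1 (chr12:3925851-3926615), lies 11923 bp from the gene body and held 27 ESC and 9 EB RAD21 reads against 5 and 1 IgG reads. The ratio of 0.591 (0.244 to 1.29) included 1, although the site was not listed in EBs. Site 2 (chr12:3956143-3956766), in an intron of Pomc, held 17 ESC and 2 EB RAD21 reads against 2 and 3 IgG reads. Here the ratio was 0.209 (0.0234 to 0.878), and EB RAD21 reads were no more numerous than EB IgG reads.

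Dnmt3l, the cofactor needed for methylation of germ-line imprints, was the gene whose sites changed least in listing. Of its 3 sites 2 were shared, and the third had a ratio of 0.613 with an interval from 0.253 to 1.35. Its highest-scoring site 3 (chr10:77622028-77623362), 96482 bp past the gene, held 32 ESC and 12 EB RAD21 reads against 0 and 1 IgG reads. The ratio was 0.664 (0.312 to 1.33), so the counts did not separate the libraries.

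For the maintenance pair the picture differed between the 2 genes. Dnmt1 had 2 ESC-only sites and none in EBs. Site 1 (chr9:20705784-20706667), 5445 bp past the gene end, held 22 ESC and 11 EB RAD21 reads against 3 and 2 IgG reads. This is a ratio of 0.886 (0.388 to 1.91), with EB reads above the random level, so the EB list lacked a site at which EB reads were present. Site 2 (chr9:20804841-20805889), 48051 bp upstream, held 26 ESC and 4 EB RAD21 reads against 7 and 2 IgG reads, a ratio of 0.273 (0.0691 to 0.786). Site 1 held a CTCF motif and site 2 did not. Uhrf1 had 1 shared and 1 ESC-only site, both in introns of Kdm4b, a histone demethylase gene downstream. The shared site 2 (chr17:56496713-56497392) held 35 ESC and 13 EB RAD21 reads against 3 and 1 IgG reads, with a ratio of 0.658 (0.320 to 1.28).

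The TET genes had 7 sites, of which 2 were shared, both near Tet3. Tet2 had a single site in ESCs (chr3:133214505-133215774), 7711 bp upstream of its main start and the nearest site to a main start among all 22. It held 33 ESC and 2 EB RAD21 reads against 8 and 2 IgG reads. At the EB depth the ESC level would have stood for 18.6 reads. The ratio was 0.107 (0.0125 to 0.420), and the EB RAD21 value of 0.258 RPM was under the EB IgG value of 0.289 RPM. Tet2 site 1 held a CTCF motif of 9.73 bits, the lowest of the 15 motif sites.

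Tet1, the TET gene known for high expression in ESCs, also had a single ESC site (chr10:62359178-62360539). It lies in an intron of the longest annotated form, 16952 bp upstream of the main start and 2152 bp inside the far-upstream start of the transcript Tet1-001. It held 18 ESC and 4 EB RAD21 reads against 3 and 0 IgG reads. The ratio was 0.394, but its interval (0.0969 to 1.20) included 1. The ESC reads were spread rather than centred. The 250 bp past the summit held 14 reads, and a further 8 reads fell in each of 2 bins, 500 to 750 bp before and 1250 to 1500 bp after the summit.

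Tet3, the TET protein of the oocyte and zygote, had 5 ESC sites. Of these, 3 had summits within 15170 bp in introns of Slc4a5, a bicarbonate transporter gene beyond the 3′ end of Tet3. Site 2 (chr6:83228599-83229649) held 37 ESC and 12 EB RAD21 reads against 4 and 0 IgG reads and was shared, with a ratio of 0.575 (0.273 to 1.13). Site 3 (chr6:83230067-83231014), its neighbour, held 23 ESC and 1 EB RAD21 reads against 2 and 1 IgG reads, a ratio of 0.0770 (0.0019 to 0.474). The intervals of the neighbours overlap. Site 1 (chr6:83214982-83215859) held 22 ESC and 4 EB RAD21 reads against 1 and 0 IgG reads, a ratio of 0.322 (0.0807 to 0.949). Chromosome 6 took fewer reads of the EB than of the ESC IgG library, a ratio of 0.839 after scaling by autosomal reads. Whether that factor bears on these RAD21 ratios was not tested. With that factor taken out, the log2 ratios of sites 1, 2 and 3 went from -1.38, -0.72 and -2.76 to -1.12, -0.47 and -2.51.

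The remaining 6 sites, near Dnmt3a, Dnmt3l, Tet3 and Uhrf1, held 17 to 32 ESC and 5 to 22 EB RAD21 reads. Their EB to ESC ratios ran from 0.521 to 1.39 and every interval included 1.

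**Figure D3:**
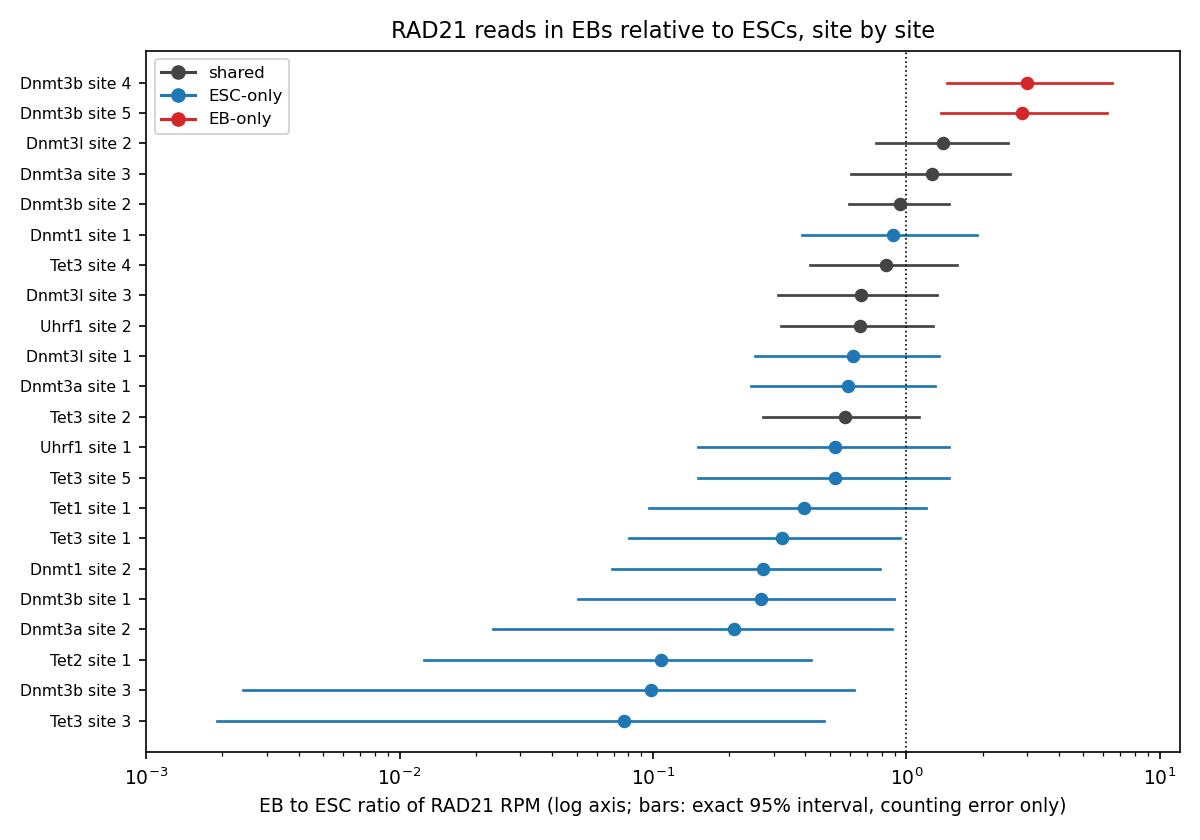
EB to ESC ratio of RAD21 RPM for the 22 sites in order of the ratio (log axis), with exact 95% intervals for counting error, coloured by class. The 2 EB-only sites of Dnmt3b lie above 1 with their intervals, 7 ESC-only sites lie below 1 with theirs, and the intervals of all 7 shared sites cross 1.

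At the gene starts themselves RAD21 was close to the IgG background in ESCs. Within 1 kb of the main start the ESC RAD21 library held 1 to 14 reads per gene and the ESC IgG library 2 to 13. With 1 read added to each count, the ratio of RAD21 to IgG RPM in ESCs was highest at Tet3 (2.30, from 14 and 5 reads) and Uhrf1 (2.21, from 11 and 4 reads). It was 1.49 at Dnmt3b and 1.23 at Dnmt1. Below 1 came Tet2 (0.827), Tet1 (0.722), Dnmt3l (0.689) and Dnmt3a (0.613). The interval of every one of the 8 ratios included 1 and all 8 overlapped, so no neighbours in this order could be told apart. In ESCs 2 of the 8 genes reached 2-fold, against 16.6% of all protein-coding autosomal genes. The order depended on the window, since within 500 bp only Dnmt1 reached 2-fold (2.14, from 6 and 2 reads) and within 2000 bp none of the 8 did.

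In EBs 4 of the 8 main starts reached 2-fold, against 25.7% of all genes, from 0 to 19 RAD21 and 0 to 4 IgG reads. Within 500 bp 3 of the 8 did, against 24.1%, and within 2000 bp 1 of the 8, against 18.0%. The median EB ratio of the 8 genes was 2.01 within 1 kb, 1.34 within 500 bp and 1.47 within 2000 bp, and over all 31 start clusters of these genes it was 1.19. Tet2 had 19 EB RAD21 and 4 EB IgG reads, a ratio of 3.58 (interval of the counts as they stand 1.41 to 17.2), and was the only main start whose interval excluded 1. Its ESC libraries held 8 and 9 reads. The EB to ESC ratio of RAD21 reads at this start was thus 4.21 (1.76 to 11.1). Both calls ended in the narrower window. Within 500 bp of the Tet2 start the EB libraries held 2 RAD21 and 4 IgG reads, a ratio of 0.537, and the EB to ESC ratio was 0.886 (0.0801 to 6.18) from 2 and 4 RAD21 reads. Within 2000 bp the EB RAD21 to IgG ratio was 2.09 (1.05 to 4.91 from the counts) and the EB to ESC ratio 2.28 (1.24 to 4.24). The EB reads were not centred on the start. The bin from 750 to 1000 bp past it held 9 of the 19, the bin from 1000 to 750 bp before it held 5, and the 750 bp before the start held none in either RAD21 library. Neither list has a site there.

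Dnmt3b reached the same EB ratio, 3.58, from 3 RAD21 and 0 IgG reads, and its interval included 1. Tet1 and Tet3 both had 4 RAD21 and 1 IgG reads, a ratio of 2.24. The remaining ratios were 1.79 at Uhrf1, 1.34 at Dnmt1 and 0.895 at Dnmt3a and Dnmt3l. Dnmt3a had no EB read of either library in this window, which allows up to 3 reads each, and its 77.5% GC was the highest of the 8 starts. Of the 31 start clusters of the 8 genes, none had an ESC RAD21 to IgG interval above 1 (interval of the share 0 to 11.2%). Among all start clusters of protein-coding autosomal genes 7.06% did, a share inside that interval. Of the 31, 12 belong to Dnmt3a, and some windows overlap, so the clusters are not independent. An EB interval above 1 was found at 3 of the 31 (9.68%, interval 2.04 to 25.8), against 6.54%. They were the Tet2 main start, the start of Tet1-002 and that of Dnmt3b-011, whose window holds the EB-only Dnmt3b site 4.

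**Figure D4:**
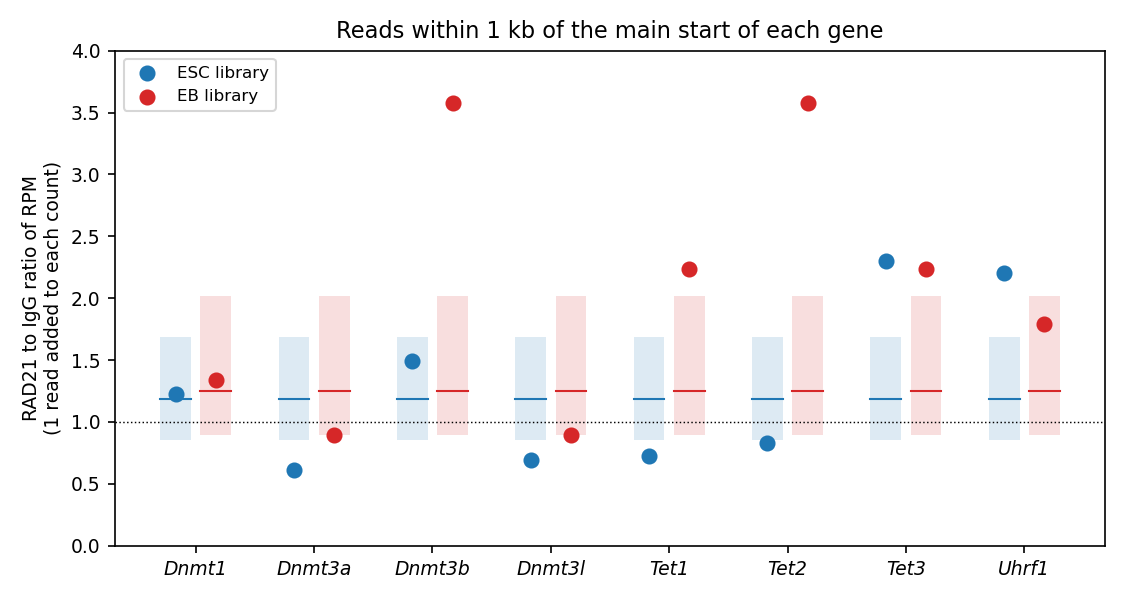
Ratio of RAD21 to IgG RPM within 1 kb of the main start of each gene, with 1 read added to each count, in ESCs (blue) and EBs (red). Shaded boxes span the middle quartiles of all protein-coding autosomal genes and the line in each is their median (1.18 in ESCs, 1.25 in EBs). Dnmt3b and Tet2 stand at 3.58 in EBs, and 4 genes lie below 1 in ESCs.

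**Figure D5:**
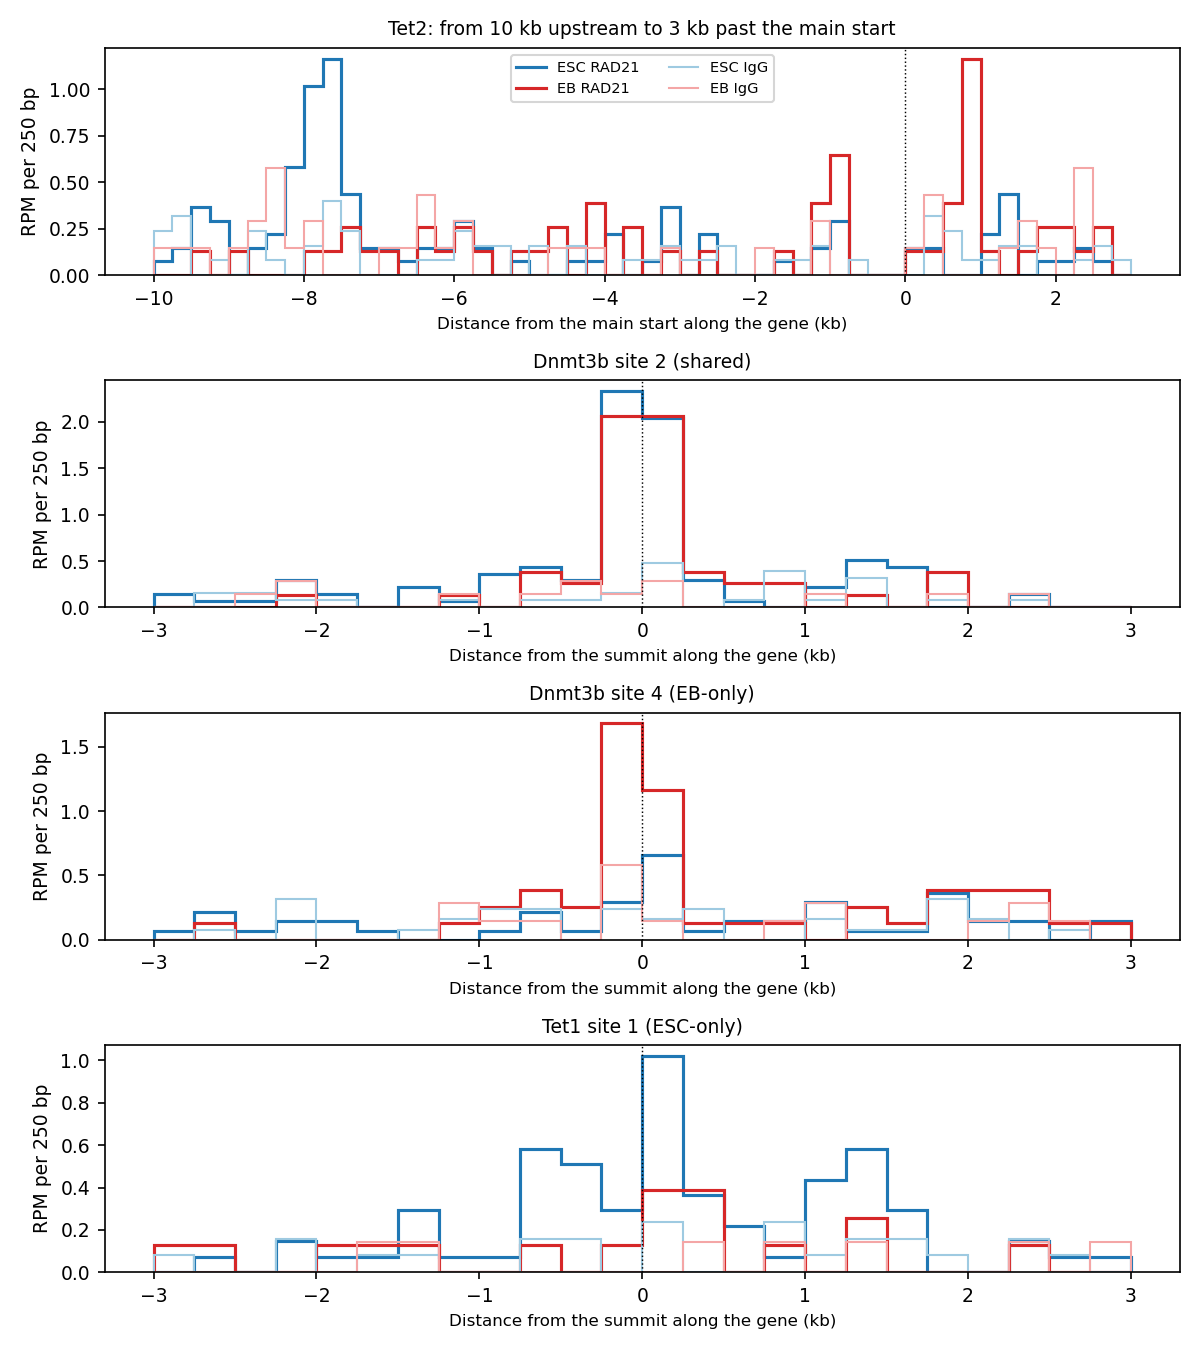
Reads of the 4 libraries in 250 bp bins (RPM, y axis) along the gene, around the Tet2 main start, the shared Dnmt3b site 2, the EB-only Dnmt3b site 4 and the ESC-only Tet1 site 1. At Tet2 the highest ESC bin (16 reads) is in the upstream site and the highest EB bin (9 reads) is past the start. At Dnmt3b site 2 the RAD21 curves are close at the summit. The bin before it has 2.33 RPM in ESCs and 2.07 in EBs, and the bin after it 2.04 and 2.07.

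Other genes of the pathway were taken from a list of 35 cofactors, repair enzymes, CXXC proteins and methyl-CpG readers, of which 32 on the autosomes were found in the annotation. At their main starts 10 reached 2-fold RAD21 over IgG in ESCs and 14 in EBs, 31.2% and 43.8% of the list against the 16.6% and 25.7% above. The list was described and not tested as a set. Only the 1 kb window is given for it, and no intervals are given for its genes. Among genes of removal and repair 5 of 10 passed in ESCs, including the stress-response genes Gadd45a (27 RAD21 and 6 IgG reads) and Gadd45b (13 and 3 reads). Gadd45b was the only gene of the list with an ESC site within 1 kb of its main start, where 2.29% of all genes had one, and none had an EB site there, against 2.19%. Of the 12 maintenance genes and cofactors 3 passed in ESCs, among them Usp7, the deubiquitinase that binds DNMT1 and UHRF1, with 8 RAD21 reads and 1 IgG read. Of the 5 CXXC proteins 1 passed in ESCs, as did 1 of the 5 readers. In EBs 6 of 10 genes of removal and repair passed, 5 of 12 of maintenance, 3 of 5 CXXC proteins and 0 of 5 readers. Within 100 kb, 29 of the 32 had an ESC site and 26 an EB site, against 82.3% and 73.6% of all genes.

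Tet3, the member with the highest ESC ratio at its main start, was compared with all other protein-coding autosomal genes by the distance between log2 RPM values in the same window over the 4 libraries. Dlgap4 and Mlph had exactly its counts (14, 4, 5 and 1 reads), a distance of 0, and Gfpt2 followed at 0.0931. Such ties come with counts this low.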

How the data were processed

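The authors sequenced 35 base reads and deposited 1 aligned read per line on mm9 for each of the 4 libraries, and these lines were counted here as reads. The aligner is not given in the sources used here. The files held no repeated autosomal position and strand. Incomplete lines were skipped (7 in the ESC IgG and 1 in the EB IgG library, which ends on chromosome X), so comparisons used autosomes. The authors called peaks with a beta release of MACS in each cell type against its IgG library and deposited a score (-10 times the log10 of p, lowest 50.01) and a summit height, a signal that was not compared between libraries.

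Reads were moved to the centre of the fragment (207 bp in ESCs, 196 bp in EBs, from the correlation of the strands) and counted within 250 bp of summits and 1 kb of starts. Starts within 500 bp were merged. Ratios of sites with intervals use counts as they stand, and medians, 2-fold calls and RAD21 to IgG ratios have 1 read added. Intervals are exact conditional (Clopper-Pearson) at the 95% level. Shared sites were counted at the ESC summit. CTCF matrices were learned on odd chromosomes and scored on even ones and the other way round, at a rate of 1e-05 per position in 20000 random windows. Random read levels came from 50000 autosomal windows that keep 2000 bp or more clear of all sites. Python 3.11.15, numpy 2.4.6, scipy 1.17.1 and pandas 2.3.3 were used, and the procedures were tested on simulated data.

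All 8 genes were named. Full values were given for sites inside a gene or within 5 kb of its starts, sites past 2-fold with an interval excluding 1, and the site of highest score near each gene. The members, the list of related genes and the alternatives were chosen with earlier results of these data known.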

Additional observations from a re-analysis of the deposited data

Results flagged for a closer look

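At 5 places the ratio of RAD21 to IgG reads, with 1 read added, was above 1 in one cell type and below 1 in the other. The share of all sites or starts that do so is not given here, so this count has no background. The difference between the cell types was not tested, since each had 1 library. At Dnmt3a site 2 the ratio was 5.51 in ESCs and 0.671 in EBs. At Tet2 site 1 it was 3.47 and 0.895, and at Tet3 site 3 it was 7.35 and 0.895. In EBs these sites held in turn 2 and 3, 2 and 2, and 1 and 1 RAD21 and IgG reads, and equal counts give 0.895. Their EB intervals, from the counts as they stand, were 0.0498 to 5.21, 0.0649 to 12.4 and 0.0114 to 70.3, and each includes 1. All these sites were listed in ESCs only, so the ESC side was fixed by the list. At the main starts the direction was the other way, with 0.722 in ESCs and 2.24 in EBs at Tet1, and 0.827 and 3.58 at Tet2. The Tet1 value rests on 4 RAD21 reads and 1 IgG read in EBs, and that of Tet2 on 19 and 4. Neither opposition held in other windows throughout. At Tet1 the ESC ratio was 1.61 both within 500 bp (6 and 3 reads) and within 2000 bp (41 and 23 reads), so that both cell types were above 1. At Tet2 the EB ratio was 0.537 within 500 bp, and within 2000 bp the ratios were 1.06 in ESCs and 2.09 in EBs. Of the sites, with reads within 500 bp of the summit the EB ratio was 1.07 at Dnmt3a site 2 and 1.49 at Tet2 site 1, and it stayed below 1 at Tet3 site 3 (0.298).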

How the results depend on the processing

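With 1 library per group no replicate could be left out. No paired analysis was possible because the labels give no replicate numbers and each group has 1 library. Of 43 comparisons of summary values with an alternative, 13 changed. Within 50 kb of the gene bodies there were 12 ESC and 5 EB sites, and with a score of at least 100 there were 12 ESC and 4 EB sites. With the motif within 75 bp of the summit 8 ESC and 5 EB sites held a match, and no share over all sites is given at this distance. The median log2 ratio of the 2 EB-only sites moved beyond the spread of these sites, to 1.90 with reads within 150 bp, 1.42 within 500 bp, 1.55 with 0.1 read added, 1.47 scaled by chromosome, 1.12 scaled to shared sites, 1.48 by GC class and 2.04 with IgG reads subtracted. In 154 comparisons of single sites none left its counting interval. The sign of the log2 ratio changed in 6 of them, at 3 shared sites whose intervals include a ratio of 1. Dnmt3a site 3 went from 0.37 to -0.45 within 150 bp, -0.08 within 500 bp and -0.02 scaled to shared sites, Dnmt3b site 2 from -0.06 to 0.11 by GC class and 0.01 with IgG reads subtracted, and Tet3 site 4 from -0.22 to 0.03 scaled by chromosome. Of the 22 sites 5 changed their side of the 2-fold limit under some alternative. ESC sites at least 2-fold lower in EBs were 7 to 12, with 12 when libraries were scaled to a median of 0 at all shared sites. That scaling lowers the log2 ratio of every site by 0.38. The share of all autosomal ESC sites, 28.7% before it, is thus not lower under it, and is given for no alternative. EB-only sites at least 2-fold higher were 2 throughout. At the main starts the median EB RAD21 to IgG ratio of 2.01 went to 1.34 within 500 bp, 1.47 within 2000 bp, 1.19 over every start cluster and 2.76 with 0.1 read added, all within the spread of the 8 genes, and the 2-fold call at the Tet2 start ended within 500 bp. The narrowest EB to ESC interval of a site, at Dnmt3b site 2, ran from 0.595 to 1.47, so smaller differences could not be seen at any of the 22 sites.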
